A study of Mus musculus with 8 samples.

Results

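The dual-specificity MAP kinase phosphatases are enzymes that switch off the MAP kinases ERK, JNK and p38. Here 9 of them, Dusp1, Dusp2, Dusp4, Dusp5, Dusp6, Dusp7, Dusp8, Dusp10 and Dusp16, were taken by symbol from the 19673 listed genes. They were followed in libraries of cells sorted from tumours as CD8 T cells. The family was selected on the KO and WT values of these same 8 libraries, so the difference between KO and WT is given below as a description. Where a member is said to have passed the threshold of the fit over all genes, or to have lost it, that describes the fit and is no independent test of the member. The tumours grew from cells of the mouse mammary cancer line Py8119 in hosts that were Mtdh KO (4 libraries, KO libraries 1 to 4) or WT (4 libraries, WT libraries 1 to 4), and the genotype is that of the host, not of the injected cells. Mtdh encodes metadherin. Live CD45+CD3e+CD8+ cells were sorted from the tumours and sequenced as bulk RNA, and the submitters call the 4 libraries of a group biological replicates. The allele of the knockout, the strain, sex and age of the hosts, and whether tumours were pooled are not given in the sources used here.

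MAP kinases are activated by phosphorylation of a threonine and a tyrosine, and a MAP kinase phosphatase removes both phosphates. Many of these phosphatases are themselves induced by the pathway they shut off, so that their transcripts form a negative feedback. In T cells MAP kinase signalling follows engagement of the antigen receptor, costimulatory receptors and cytokine receptors, and activated T cells are known to induce several members. By substrate and place, Dusp1, Dusp2, Dusp4 and Dusp5 are nuclear and inducible, Dusp6 and Dusp7 are cytoplasmic and prefer ERK, and Dusp8, Dusp10 and Dusp16 prefer JNK and p38.

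All 9 share a catalytic loop in which a histidine, the catalytic cysteine, 5 further residues and an arginine follow one another. The codons of that loop are shown because they are what defines the family as phosphatases, and they come from the longest protein-coding transcript of each gene in GENCODE M21, read 5′ to 3′. The first codon in capitals is that of the catalytic cysteine and the second is that of the arginine.
Dusp1: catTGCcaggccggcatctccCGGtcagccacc
Dusp2: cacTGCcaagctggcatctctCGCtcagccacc
Dusp4: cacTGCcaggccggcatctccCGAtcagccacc
Dusp5: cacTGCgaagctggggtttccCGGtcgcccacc
Dusp6: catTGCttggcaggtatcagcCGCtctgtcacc
Dusp7: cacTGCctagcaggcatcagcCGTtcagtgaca
Dusp8: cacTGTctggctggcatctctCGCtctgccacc
Dusp10: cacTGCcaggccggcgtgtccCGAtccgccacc
Dusp16: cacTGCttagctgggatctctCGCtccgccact
Over these 33 bases Dusp4 differed from Dusp1 at 2 positions, Dusp2 and Dusp10 at 5, Dusp8 at 7, Dusp5 and Dusp6 at 9, and Dusp7 and Dusp16 at 10.

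Promoters, taken as 250 bases before to 50 bases after the annotated start, are shown for Dusp1, for the nuclear member Dusp5 and for the JNK and p38 phosphatase Dusp10. Dusp5 and Dusp10 are included because each was called higher in the KO libraries. They are RefSeq sequences of the GRCm38.p6 build, for Dusp1 at chr17:26508423-26508722 on the minus strand, for Dusp5 at chr19:53528895-53529194 on the plus strand and for Dusp10 at chr1:184034131-184034430 on the plus strand. Capitals mark matches to the motifs searched on both strands.
Dusp1: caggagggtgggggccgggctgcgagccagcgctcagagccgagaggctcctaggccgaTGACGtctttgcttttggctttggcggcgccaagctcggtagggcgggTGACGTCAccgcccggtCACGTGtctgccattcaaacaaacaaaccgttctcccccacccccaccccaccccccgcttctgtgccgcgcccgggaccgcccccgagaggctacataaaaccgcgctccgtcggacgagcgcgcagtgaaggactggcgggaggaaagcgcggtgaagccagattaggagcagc
Dusp5: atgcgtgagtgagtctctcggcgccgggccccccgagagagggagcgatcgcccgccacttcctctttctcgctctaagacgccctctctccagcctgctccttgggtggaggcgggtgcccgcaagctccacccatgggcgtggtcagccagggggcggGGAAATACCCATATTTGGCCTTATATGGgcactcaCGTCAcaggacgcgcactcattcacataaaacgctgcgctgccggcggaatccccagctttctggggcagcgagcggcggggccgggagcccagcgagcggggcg
Dusp10: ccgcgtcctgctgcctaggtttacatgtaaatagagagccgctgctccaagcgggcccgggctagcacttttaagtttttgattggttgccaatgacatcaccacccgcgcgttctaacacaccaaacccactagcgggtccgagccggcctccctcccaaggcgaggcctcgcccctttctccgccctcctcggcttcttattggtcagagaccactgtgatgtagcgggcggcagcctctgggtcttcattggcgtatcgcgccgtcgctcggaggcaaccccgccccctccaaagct
The motifs searched were the cyclic AMP response element (CRE) as its full site TGACGTCA and as its half-site TGACG, and the AP-1 motif TGANTCA. The ETS motif was searched as CCGGAAG, the E-box as CACGTG and the TATA box as TATAAA, and the NF-kappaB motif and the CArG box of serum response factor were searched too. Promoters of 8 of the 9 members, all but Dusp4, were matched by symbol. In the Dusp5 promoter 2 CArG boxes lay side by side, 82 to 73 and 72 to 63 bases before the start, and 1.63% of the 32851 promoters in the table held any. A match to NF-kappaB, found in 4.79% of promoters, overlapped the first of them by 2 bases. The full CRE was held by 1.79% of promoters and by those of Dusp1, 143 bases before the start, and Dusp8. Half-sites, which the full site contains, were in 5 of the 8 member promoters (Dusp1, Dusp2, Dusp5, Dusp8 and Dusp16) and in 20.8% of all promoters. The E-box was in those of Dusp1 and Dusp2 (7.15% of all). None of the 8 held the AP-1 (7.81% of all), ETS (8.86%) or TATA (13.6%) letters, and the Dusp10 window held none of the motifs searched.

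The values below are read counts per gene that the authors had normalized with DESeq2, called normalized values. Differences were fitted with limma on log2(value + 1) over the 16120 genes with a mean of at least 10, and all 9 members passed this minimum. Libraries held an estimated 16446400 to 29557900 reads. Small RNA genes held 28.5% to 36.3% of the summed values of a library. By the share of other genes missed, the reads outside small RNA genes came from an estimated 113968 to 636063 distinct cDNA fragments. A single fragment corresponds to 150.2 normalized units in KO library 2, which had the fewest, and to 23.4 in WT library 3, which had the most. Mtdh itself averaged 3905 ± 1179 in KO and 9113 ± 2699 in WT libraries (SD, n = 4 each), and its log2 fold change of -1.23 (SE 0.25) had a limma adjusted p of 0.0400. Every KO value of Mtdh lay below every WT value (exact two-sided permutation p = 0.0286, the smallest that 70 arrangements allow). Leaving out any 1 of KO libraries 2, 3 and 4 (-1.33, -1.04 and -1.17) or of WT libraries 1 and 2 (-1.20 and -1.05) ended the Mtdh call.

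In the fit over all genes 3 of the 9 members, Dusp4, Dusp5 and Dusp10, were higher in KO libraries at a limma adjusted p under 0.05, against 0.211% of all tested genes, and 0 were lower, against 0.0248%. The same 3 were those whose KO values all lay above the WT values, which 2.02% of tested genes did. In the opposite direction 0 of 9 members had groups that did not overlap, against 2.09% of tested genes. Of the other members, Dusp2 and Dusp16 had higher means in KO libraries and Dusp1, Dusp6 and Dusp7 lower ones, with groups that overlapped. Dusp8, whose groups also overlapped, had a higher mean but a lower mean log2 value in KO libraries. Since the members were chosen with this contrast in view, nothing is read from these shares. In bulk samples fewer cells of a type and less RNA per cell cannot be told apart.

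**Figure D1:**
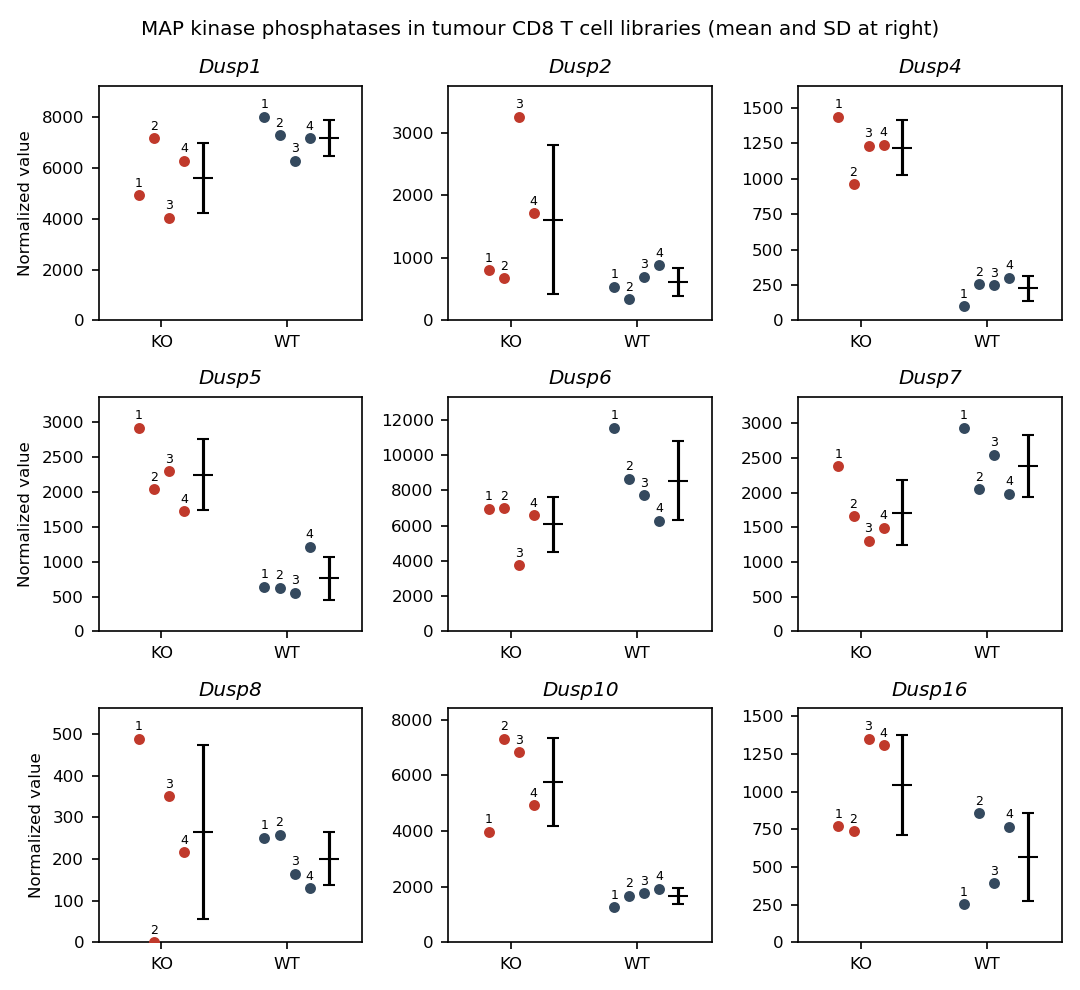
Normalized values (y axis, from 0, a scale for each gene) of the 9 phosphatases in KO and WT libraries; points are libraries with their number, and bars are the mean and SD of 4 libraries. The KO and WT points of Dusp4, Dusp5 and Dusp10 do not overlap, and those of the other 6 genes do.

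Dusp4, a nuclear phosphatase of ERK and JNK that is induced by ERK signalling (ENSMUSG00000031530, chromosome 8, 35274451 to 35287048 of mm39), had the largest log2 fold change of the 9 members. Its normalized values were 1440, 963, 1234 and 1243 in KO libraries 1 to 4, against 98.6, 258, 247 and 302 in WT libraries 1 to 4. The 4 KO libraries lay close together, and all of them were far above the highest WT library. The means were 1220 ± 196 in KO and 226 ± 88.5 in WT libraries (SD, n = 4 each), a log2 fold change of 2.53 (SE 0.42). The WT level rests on few fragments: WT library 1 held an estimated 1.6 fragments of Dusp4 and WT library 2 held 4.0, against 6.4 to 32.3 in KO libraries. Leaving out WT library 1 gave 2.17, and of the 8 omissions of a library the one that ended the call was that of KO library 4, where the value was 2.51 and 7 genes in all were called higher.

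Dusp5, a nuclear phosphatase specific for ERK (ENSMUSG00000034765, chromosome 19, 53517540 to 53530862), had values of 2924, 2041, 2298 and 1729 in KO libraries, against 641, 629, 557 and 1213 in WT libraries. WT library 4 stood apart from the other 3 WT libraries, about midway between them and KO library 4. The means were 2248 ± 507 in KO and 760 ± 304 in WT libraries (SD, n = 4 each), a log2 fold change of 1.61 (SE 0.30). Of the 3 calls this one depended most on single libraries. Leaving out any 1 of KO libraries 1 and 4 (1.47 and 1.73) or of WT libraries 1, 2 and 3 (1.55, 1.54 and 1.48) ended it, and the other 3 omissions did not. The overlapping antisense gene Gm50394 had a value of 19.6 in WT library 3 and 0 in the other libraries.

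Dusp10, which acts on JNK and p38 (ENSMUSG00000039384, chromosome 1, 183745499 to 183807833), had values of 3977, 7318, 6825 and 4922 in KO libraries, against 1277, 1675, 1768 and 1924 in WT libraries. All 4 KO libraries were far above the highest WT library, and the 4 WT libraries lay close together. The means were 5761 ± 1575 in KO and 1661 ± 276 in WT libraries (SD, n = 4 each), a log2 fold change of 1.77 (SE 0.24). It was the best sampled of the 3, with an estimated 20.9 fragments in the least sampled WT library, and its call held in each of the 8 omissions of a library, with values of 1.64 to 1.93. With the replicate number as a further term in the fit the calls of all 3 members ended. The limma adjusted p was then 0.0513 for Dusp10, 0.0926 for Dusp4 and 0.177 for Dusp5.

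The nuclear member Dusp2, which is expressed mainly in haematopoietic cells and acts on ERK and p38 (ENSMUSG00000027368, chromosome 2, 127178079 to 127180296), had the widest spread among KO libraries after Dusp8, relative to its mean. Its values were 801, 674, 3257 and 1717 in KO libraries, against 540, 339, 698 and 881 in WT libraries. KO libraries 3 and 4 were above all WT libraries, and KO libraries 1 and 2 lay within the WT range. The log2 fold change was 1.19 (SE 0.44) and did not pass, with 0.75 when KO library 3 was left out and 1.51 when KO library 2 was. KO library 2 held an estimated 4.5 fragments of Dusp2 and WT library 2 held 5.3.

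Dusp16, a JNK phosphatase (ENSMUSG00000030203, chromosome 6, 134692431 to 134769588), showed the same split among KO libraries. It had 772, 740, 1353 and 1309 in KO libraries, against 255, 858, 391.9 and 768 in WT libraries. KO libraries 3 and 4 again stood above every WT library, and KO libraries 1 and 2 lay within the WT range. The log2 fold change of 0.98 (SE 0.41) did not pass, and it was 0.65 without WT library 1. An estimated 4.9 fragments of Dusp16 stood behind KO library 2 and 4.2 behind WT library 1.

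Dusp1, an inducible nuclear phosphatase of p38 and JNK and an immediate early gene of stress (ENSMUSG00000024190, chromosome 17, 26724564 to 26781102), did not pass. It had values of 4908, 7156, 4041 and 6277 in KO libraries, against 8007, 7287, 6273 and 7148 in WT libraries. KO libraries 1 and 3 were below all WT libraries, and KO libraries 2 and 4 lay within the WT range. Its log2 fold change was -0.39 (SE 0.21). The listed span of Dusp1 overlaps Ergic1 on the other strand (1337 on average in KO and 1690 in WT libraries), and without a stated strand reads of the overlap cannot be told apart.

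Dusp6 and Dusp7, the cytoplasmic ERK phosphatases, leaned to the WT side without passing. Dusp6 (ENSMUSG00000019960, chromosome 10, 99099093 to 99103351) had 6965, 6980, 3771 and 6605 in KO libraries, against 11566, 8668, 7713 and 6278 in WT libraries, a log2 fold change of -0.50 (SE 0.24). KO library 3 was far below the others, and WT library 4 lay within the KO range. Leaving out KO library 3 moved the Dusp6 value to -0.29. Dusp7 (ENSMUSG00000053716, chromosome 9, 106245831 to 106252923) had 2380, 1667, 1310 and 1498 in KO libraries, against 2940, 2052, 2550 and 1988 in WT libraries, a log2 fold change of -0.49 (SE 0.25). Only KO library 1 reached into the WT range.

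Dusp8, a JNK and p38 phosphatase best known from brain and heart (ENSMUSG00000037887, chromosome 7, 141633227 to 141649580), was the member with the lowest level per length. It had 489, 0, 351 and 217 in KO libraries, against 251, 258, 165 and 129 in WT libraries, which is 0 to 8.6 estimated fragments in KO libraries and 4.0 to 7.0 in WT libraries. The KO mean was the higher one, at 264 ± 208 in KO and 201 ± 63.9 in WT libraries (SD, n = 4 each), while the log2 fold change was negative. This value of -1.31 (SE 1.45) turned on the 0 in KO library 2, the library with the fewest fragments, and was 0.79 without it.

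**Figure D2:**
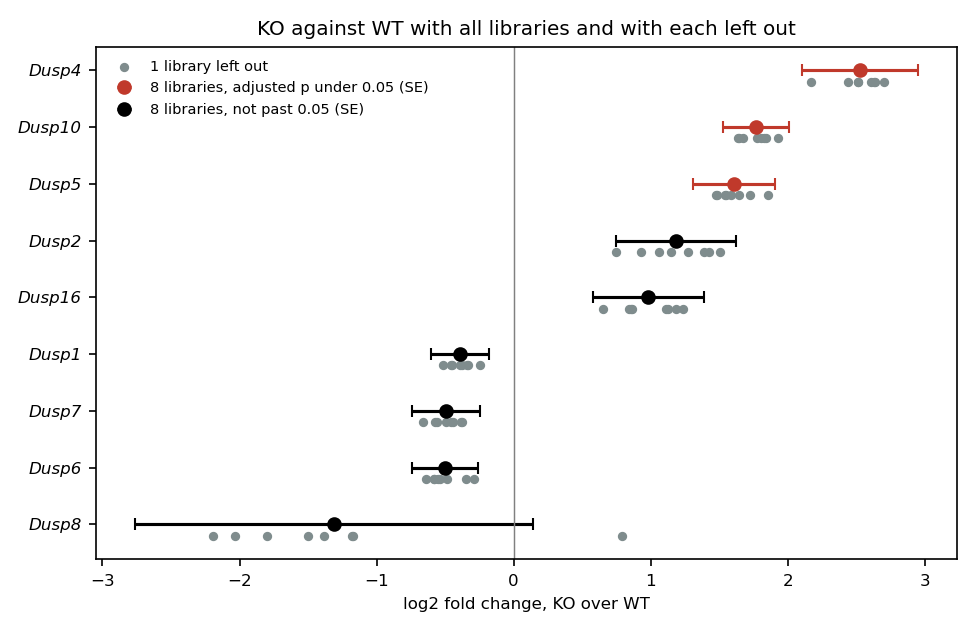
The log2 fold change of KO over WT (x axis) for each phosphatase, with its SE, and grey points for the same value with 1 library left out. Dusp4, Dusp10 and Dusp5 (red) stay above 1.47 in every omission, and Dusp8 changes sign without KO library 2.

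Levels of different members were compared per kb of the longest protein-coding transcript. In KO libraries the order by mean was Dusp1 (2812 ± 698 per kb), Dusp6 (2175 ± 554), Dusp10 (2063 ± 564), Dusp2 (997 ± 737), Dusp5 (909 ± 205), Dusp7 (533 ± 145.4), Dusp4 (445 ± 71.5), Dusp16 (204 ± 65.2) and Dusp8 (55.0 ± 43.3; all SD, n = 4). The ranges of neighbours in that order overlapped from Dusp1 down to Dusp4, and those of Dusp4 and Dusp16, and of Dusp16 and Dusp8, did not. In WT libraries Dusp1 (3607 ± 357 per kb) and Dusp6 (3060 ± 799) also led and overlapped each other, and Dusp6 was apart from Dusp7 (742 ± 140), the next gene. Next came Dusp10 (595 ± 98.8), Dusp2 (380 ± 143) and Dusp5 (307 ± 123), overlapping from one to the next from Dusp7 on, and Dusp5 was apart from Dusp16 (111 ± 56.9). Dusp4 (82.7 ± 32.3) and Dusp8 (41.8 ± 13.3) came last and overlapped with the neighbour above each (all SD, n = 4).

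The sum of the 9 members per kb was 9579, 10970, 9963 and 10262 in KO libraries, against 10264, 8780, 8196 and 8468 in WT libraries, so the 2 groups overlapped in total and differed more in make-up. Dusp10 made up 20.1 ± 4.83% of the sum in KO and 6.79 ± 1.65% in WT libraries, Dusp5 9.0 ± 2.47% in KO and 3.49 ± 1.54% in WT libraries, and Dusp4 4.41 ± 0.935% in KO and 0.956 ± 0.416% in WT libraries (SD, n = 4 each). Dusp1 made up 27.4 ± 5.54% in KO and 40.4 ± 1.91% in WT libraries, and Dusp6 21.3 ± 5.40% in KO and 33.9 ± 5.70% in WT libraries. By class, the nuclear inducible members together held 50.7 ± 3.26% in KO and 49.2 ± 4.63% in WT libraries, with Dusp1 lower and Dusp2, Dusp4 and Dusp5 higher in KO libraries. The JNK and p38 members held 22.7 ± 4.73% in KO and 8.53 ± 2.11% in WT libraries, and the cytoplasmic ERK members 26.6 ± 6.66% in KO and 42.2 ± 6.35% in WT libraries. Dusp10 made up most of the JNK and p38 share. Dusp16 held 2.01% in KO and 1.28% in WT libraries, and Dusp8 held 0.559% in KO and 0.465% in WT libraries. The ratio of Dusp10 to Dusp6 per kb was 0.572, 1.05, 1.81 and 0.746 in KO libraries, against 0.111, 0.194, 0.230 and 0.307 in WT libraries. That ratio lies within a library and does not depend on how libraries were scaled to each other. It divides a member called higher by a member of lower KO mean, in the libraries on which the family was selected. The gap between the groups is therefore a description and no separate support.

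**Figure D3:**
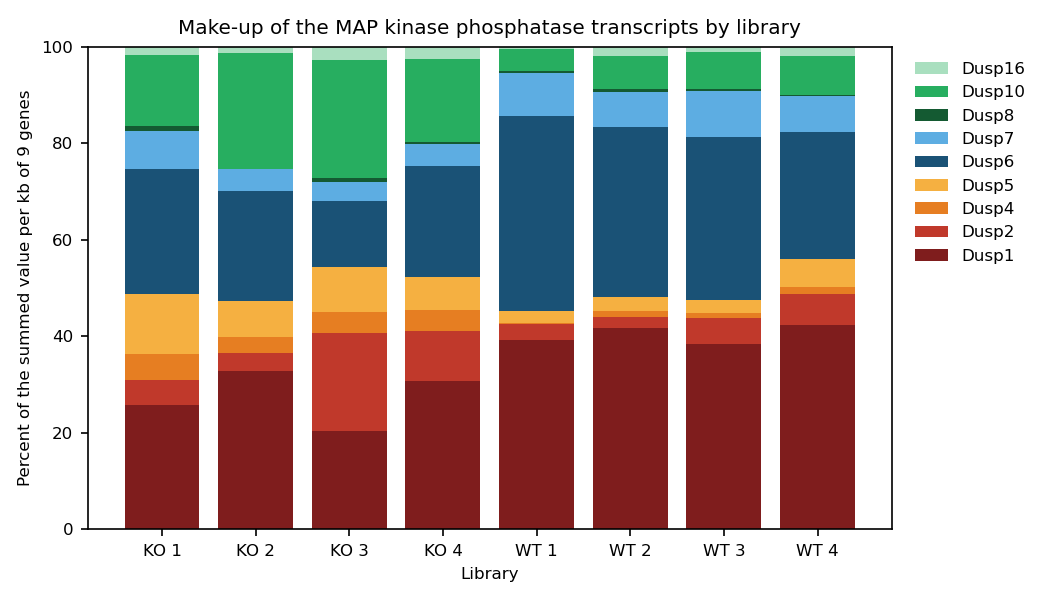
The share of each phosphatase (y axis, percent of the summed value per kb of the 9 genes) in each library (x axis). The green Dusp10 band takes 14.9% to 24.5% of KO libraries and 4.46% to 8.14% of WT libraries, and the dark blue Dusp6 band 13.5% to 26.0% and 26.5% to 40.3%.

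Of the defining T cell markers, Cd8a ranged over 7561 to 13355 in KO libraries and over 1565 to 6545 in WT libraries, and Cd3e over 2587 to 6339 in KO libraries and 909 to 2752 in WT libraries. Others were below the worth of 1 fragment in some libraries. In KO library 1 (78.0 per fragment) these were Cd3d (26.2), Cd2 (44.3), Cd5 (4.52) and Zap70 (2.71), and in KO library 2 Cd3d (3.30). In WT library 2 (64.5 per fragment) they were Cd3d (1.89), Cd247 (7.15), Cd2 (2.84), Cd5 (25.5) and Zap70 (2.84). These values enter the sums and log2 fold changes of the T cell markers below. Markers of other cells were also present, and the macrophage gene Lyz2 (75242 to 186897 in KO libraries, 130076 to 211543 in WT libraries) was above Cd8a in every library. The summed level of the 12 CD8 T cell markers was 20074 to 44606 in KO and 7826 to 26381 in WT libraries, with a median log2 fold change of 0.72, 11 of 12 values positive and 0 of 12 past the threshold. That of the 14 macrophage and monocyte markers was 113031 to 253820 in KO and 189438 to 295881 in WT libraries, with a median of -0.44, 13 of 14 values negative and 0 of 14 past the threshold. In every library this sum was above that of the CD8 T cell markers, with Lyz2 its largest part. Phosphatase levels given here are those of the sorted samples, and which cells they came from was not tested. The 9 dendritic cell markers did not overlap in sum (KO libraries 2618 to 4878, WT libraries 1111 to 1776), with a median of 1.09, 6 of 8 tested values positive and 0 of 8 past the threshold. Flt3, Clec9a and Ccl22 were at 0 in KO library 2, and Zbtb46, Cd209a and Siglech were at 1.10 there. The sum of that library (2740) came mainly from Ccr7 (1220), Itgax (1092) and Xcr1 (425). Flt3 and Siglech were at 0 in WT library 1, and Cd209a was at 0 in all WT libraries. No marker of these 3 lists was at 0 in all libraries. The summed level of the 8 fibroblast markers spanned 3902 to 22404 in KO libraries and 8760 to 21216 in WT libraries, with a median of -0.64, 7 of 8 values negative and 0 of 8 past the threshold. Of all 16120 tested genes 6992 had positive and 9128 negative values, with a median of -0.12. The part of these cell markers in the differences of the phosphatases was not tested.

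The order of the libraries by these sums was not that of the 3 called members in every case. KO library 1 had a lower T cell marker sum (20074) than WT library 3 (22673) or WT library 4 (26381), and its Dusp4 value of 1440 was above their 247 and 302. Its Dusp5 value of 2924 was above their 557 and 1213, and its Dusp10 value of 3977 above their 1768 and 1924. The same library had the highest dendritic cell sum (4878) and the highest fibroblast sum (22404) of all 8 libraries, and also the highest Dusp4 and Dusp5. WT library 2 had the lowest T cell sum (7826), and without it the log2 fold change was 2.63 for Dusp4, 1.54 for Dusp5 and 1.78 for Dusp10. Leaving out 1 library does not test the part of cell content in these values. Single libraries stood at the ends of several of these scales, and no relation was computed across them. KO library 3, with the highest T cell sum (44606) and the lowest macrophage sum (113031), had the lowest KO values of Dusp1, Dusp6 and Dusp7 and the highest of Dusp2 and Dusp16. WT library 1, with the highest macrophage sum (295881), had the highest Dusp1, Dusp6 and Dusp7 of all 8 libraries and the lowest Dusp4, Dusp10 and Dusp16. WT library 2, with the lowest T cell sum, had the lowest Dusp2 of all 8 libraries and the highest Dusp16 of the WT libraries (858).

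**Figure D4:**
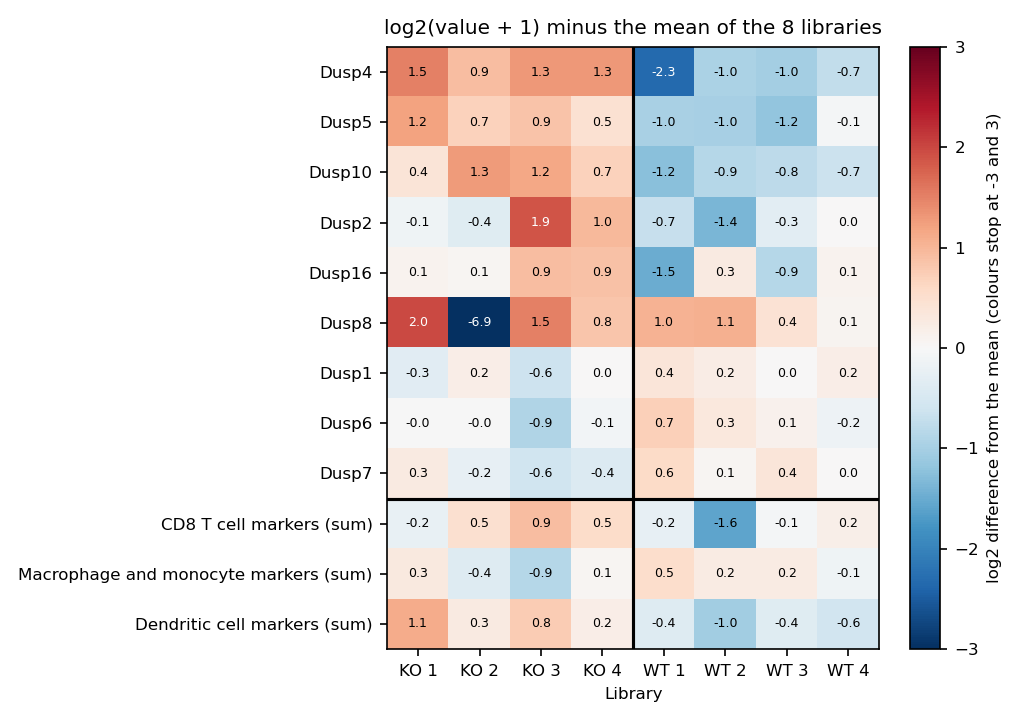
log2(value + 1) of each phosphatase, and of 3 marker sums, minus its mean over the 8 libraries (colour and printed number), by library (x axis). The rows of Dusp4, Dusp5 and Dusp10 are positive in all KO and negative in all WT libraries, and the rows of Dusp1, Dusp6 and Dusp7 are lowest in KO library 3.

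The genes around these phosphatases in the pathway were described from 8 lists with 103 genes in all, of which 95 were tested. None of the 95 passed over all genes by limma, where 0.236% of tested genes did, and at an unadjusted p under 0.05 there were 6 higher and 4 lower, against 518 higher and 562 lower of the 16120 tested genes. List medians of the log2 fold change ran between -0.25 and 0.24, against -0.12 for all tested genes and 0.98 for the 9 phosphatases.

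In the ERK cascade 0 of 14 genes passed, with a median of 0.24 and 10 of 14 values positive, against 6992 of the 16120 tested genes. The exchange factor Sos2, which loads Ras with GTP, averaged 1797 ± 385 in KO and 1135 ± 141 in WT libraries (SD, n = 4 each), without overlap, and its log2 fold change of 0.65 (SE 0.26) had a limma adjusted p of 0.679. The kinase Braf was at 0.23 (SE 0.21) and the GTPase Nras, the most abundant gene of the list, at -0.10 (SE 0.21). Among the JNK and p38 cascades 0 of 16 passed (median 0.11). Map3k1, an upstream kinase of JNK and the most abundant of that list, was at 0.51 (SE 0.21, limma adjusted p = 0.727), and Mapk12 (p38 gamma), at 0 in KO libraries 1 and 2, averaged 35.6 ± 41.9 in KO and 181 ± 179 in WT libraries. Of the kinases that MAP kinases activate 0 of 9 passed (median -0.03), with Mknk2 at 0.52 (SE 0.23), Mapkapk3 at 0.80 (SE 0.47) and Rps6ka3, the most abundant, at -0.03 (SE 0.21).

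Feedback inhibitors of Ras and ERK other than the phosphatases had 0 of 13 genes past the threshold and a median of 0.03. Errfi1, an inhibitor of the EGF receptor, had 3335, 4052, 4577 and 3360 in KO libraries, against 1737, 2859, 1568 and 3161 in WT libraries (log2 fold change 0.77, SE 0.25, limma adjusted p = 0.466). Its groups did not overlap, though WT library 4 came close to KO library 1. Spred3 was at -2.26 (SE 1.20), with a value of 1.10 in KO library 2, and the Ras GTPase activator Rasa1 was at -0.19 (SE 0.22).

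Transcripts that ERK signalling induces split evenly, with 6 of 12 positive, 0 of 12 past the threshold and a median of 0.04. Ier3, an immediate early gene, averaged 1155 ± 331 in KO and 632 ± 104 in WT libraries (SD, n = 4 each) without overlap, and its log2 fold change of 0.84 (SE 0.32) had a limma adjusted p of 0.657. Egr1, another immediate early gene, leaned the other way at 3145 ± 387 in KO and 4364 ± 954 in WT libraries (-0.45, SE 0.22, limma adjusted p = 0.742), and the cyclin Ccnd1, the most abundant of the list, was at -0.33 (SE 0.26). Genes of tissue dissociation and the immediate early response, a group to which Dusp1 also belongs, had 0 of 13 past the threshold and a median of -0.08. Fos was at 21541 ± 2967 in KO and 31640 ± 5737 in WT libraries (SD, n = 4 each; -0.55, SE 0.20, limma adjusted p = 0.649). Jun was below its WT values in all 4 KO libraries (-0.48, SE 0.21), and Fosb, the most abundant, was at 0.32 (SE 0.23). The Dusp1 value of -0.39 lay near those of Fos and Jun, while 6 of the 13 genes of the list had positive values, among them Junb (0.18) and Jund (0.52).

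Other phosphatases were described in 2 lists. Among those that act on MAP kinases outside the 9, 0 of 8 passed (median 0.15). Dusp9, the remaining classical MAP kinase phosphatase, had 190, 0, 107 and 130 in KO libraries, against 0.930, 198, 139 and 12.6 in WT libraries, few fragments in every library. Ptpn5, a tyrosine phosphatase best known from neurons, had 122, 0, 186 and 115 in KO libraries, against 5.58, 0, 0 and 0.788 in WT libraries (limma adjusted p = 0.746), with KO library 2 at the level of the WT libraries. Ptpn7, which acts on ERK in lymphocytes, was at 0.77 (SE 0.55), or -0.011 without WT library 2, and Ppp2ca, a catalytic subunit of protein phosphatase 2A and the most abundant, at 0.06 (SE 0.19). Of the atypical dual-specificity phosphatases, small enzymes without the kinase-binding domain of the 9, 0 of 10 tested genes passed and the median was -0.25. Dusp3, which acts on ERK and JNK, had 1543, 1380, 1148 and 1420 in KO libraries, against 2360, 2602, 2098 and 2335 in WT libraries (log2 fold change -0.78, SE 0.23, limma adjusted p = 0.331), and its groups did not overlap. Dusp12 was at -2.97 (SE 1.85), with 0 and 1.10 in KO libraries 1 and 2, and Dusp11, an RNA phosphatase and the most abundant of the list, at 0.14 (SE 0.19).

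**Figure D5:**
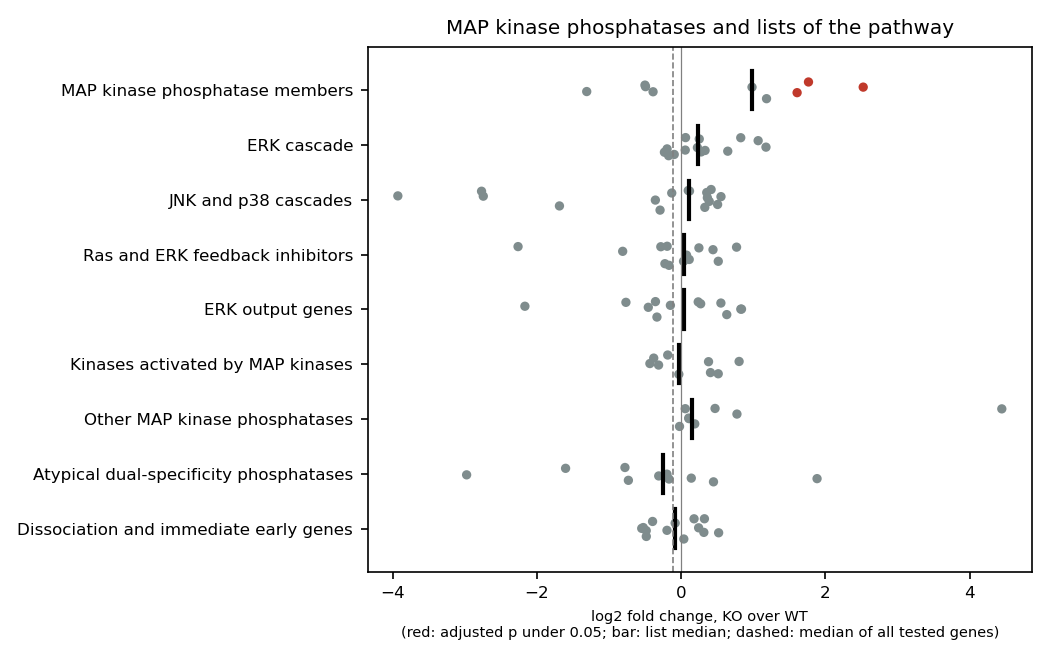
The log2 fold change of KO over WT (x axis) for each tested gene of the 9 phosphatases and of 8 lists of the pathway (rows; vertical jitter only separates points). The median of the phosphatases is 0.98, those of the lists lie between -0.25 and 0.24, and the 3 red points past the threshold are Dusp4, Dusp10 and Dusp5.

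Genes whose levels varied most like those of the 3 called members were sought among 10580 protein-coding genes with a mean of at least 50, by Pearson r over the 8 libraries after each group's mean had been subtracted. For Dusp10 these were Zkscan3 (r = 0.986), Nipbl (r = 0.972) and Zbtb2 (r = 0.971). For Dusp5 they were Rasa2 (r = 0.951), which encodes a Ras GTPase activator and is one of the feedback inhibitors listed above, Fcrl6 (r = 0.943) and Wapl (r = 0.930). For Dusp4 they were Shcbp1 (r = 0.988), Ifi211 (r = 0.985) and Skp2 (r = 0.984), each of which, like Dusp4, was lowest in WT library 1 (0, 3.95 and 11.2). With 8 libraries and so many genes these r values only order the genes. Their log2 fold changes of KO over WT were -0.11, 0.25 and -0.018 for the genes most like Dusp10, 0.076, 6.48 and 0.13 for those most like Dusp5, and 1.90, 2.37 and 1.08 for those most like Dusp4, in the order named, and none of the 9 passed by limma.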

How the data were processed

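The members and gene lists were chosen with earlier results of these data known. Bulk RNA was measured in 8 libraries, 4 KO and 4 WT. Per the labels' protocols, ribosomal RNA was depleted and libraries were made with PrepX chemistry. Partek, the aligner STAR (2.7.8a), DESeq2 and the build mm39 appear in the submitters' processing notes without roles, and the strand setting is not given in the sources used here. The deposited signal per gene and library is a read count normalized by the authors with DESeq2, as the table's name says. Values were not all whole multiples of 1 read, so no count model was run. Gene coordinates are those of the table, with ends 1 less than the listed stop. Depth was each column's sum divided by its most frequent low step (0.788 to 1.30). Distinct fragments were estimated from the share of genes with under 3 reads in a library among those averaging 20 to 500 elsewhere, which was 9.09% to 44.4% and was taken as missed by a Poisson draw. Small RNA genes were left out of this estimate but not of the depth. The number of fragments limits precision, beside the variation among libraries.

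Values were used as log2(value + 1). The 16120 genes with a mean of at least 10 entered a limma fit (limma 3.58.1, R 4.3.3, intensity trend, no covariate, two-sided, Benjamini-Hochberg adjustment over all genes, threshold 0.05). The fit was also run on simulated data in which only genes of higher mean than Dusp4 or Dusp8 were changed. That run does not cover members with so few fragments. Fold changes are KO over WT. Named genes are the members, Mtdh, from each pathway list the 2 genes of lowest p and the 1 most abundant, and the 3 genes most like each called member, and Dusp9 is added as the remaining phosphatase of the class. Alternatives were the pseudocount, the minimum mean, TMM (unweighted) and quantile scaling, a replicate block, sample weights and each library left out.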

Additional observations from a re-analysis of the deposited data

Results flagged for a closer look

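Of the 84 groups of 4 libraries examined for the 9 phosphatases and the other named genes, 6 held a library whose gap to the nearest other one was, as a part of the group's range, above the 95% critical value of Dixon's test, which chance passes in about 1 group in 20. Among the phosphatases, Dusp6 in KO library 3 (3771) lay below the other KO libraries (6605 to 6980), and that library also had the lowest macrophage marker sum. Dusp5 in WT library 4 (1213) lay above the other WT libraries (557 to 641). Fos in KO library 4 (25976) lay above the other KO libraries (19717 to 20274), and Nras in WT library 1 (6764) above the other WT libraries (6130 to 6226). Ptpn5 in WT library 1 (5.58) and Fcrl6 in WT library 4 (31.5) also stood out, both at a level of about 1 fragment or less.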

How the results depend on the processing

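Over 16 alternatives Dusp4, Dusp5 and Dusp10 kept positive log2 fold changes, of 2.17 to 2.702, 1.47 to 1.86 and 1.64 to 1.93. With a replicate block on the replicate number the calls of Dusp4 (2.53), Dusp5 (1.61), Dusp10 (1.77) and Mtdh (-1.23) ended, and limma called 0 genes higher and 0 lower (1101 at an unadjusted p under 0.05). Deviations of same-numbered libraries correlated at 0.016 to 0.076 and 1 of 4 KO libraries correlated best with its own number. None of the correlations was over 0.1, and the main fit took the libraries as unpaired. Libraries 1 and 2 of both groups held fewer estimated fragments than libraries 3 and 4. Whether the groups share such a division over all genes was not tested, and the 3 member calls depend on a fit without the replicate number. A minimum mean of 50 ended the calls of Dusp5 (1.61) and Mtdh (-1.23) and gave 15 genes higher and 0 lower (852 at an unadjusted p under 0.05). A pseudocount of 10 gave 59 higher, sample weights 94 higher and 18 lower, and quantile normalization 7 lower, against 34 higher and 4 lower. With 1 library left out there were 7 (without KO library 4) to 61 (without WT library 4) genes higher and 0 (without KO library 4 or WT library 1) to 9 (without WT library 4) lower, and Mtdh was at -1.38 to -1.04. Dusp8 was at -2.19 to 0.79 with 1 library left out, at -0.52 with a pseudocount of 10 and at -0.06 with sample weights. No gene of the 8 pathway lists passed under any of the 16 alternatives. The median of the kinases activated by MAP kinases was 0.35 with quantile normalization, and that of the dissociation genes was 0.038 with sample weights. With 1 library left out the median was -0.34 (without WT library 1) to 0.12 for ERK output genes and -0.21 (without KO library 4) to 0.036 for dissociation genes. The cause of these changes was not tested. Signs changed when 1 library was left out for Nras (-0.21 to 0.053), Rps6ka3 (-0.16 to 0.072), Ptpn7 (-0.011 to 1.12), Ppp2ca (-0.013 to 0.11), Skp2 (-0.22 to 1.58), Rasa2 (-0.075 to 0.26), Zkscan3 (-0.24 to 0.059) and Zbtb2 (-0.30 to 0.26), and for Ppp2ca with quantile normalization (-0.031). Low fragment numbers limit Dusp4 in WT libraries 1 and 2, Dusp2 in KO library 2 and WT library 2, Dusp16 in KO library 2 and WT library 1, and Dusp8 and Dusp9 throughout.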

Other observations

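Dusp14, an atypical dual-specificity phosphatase named here after its values were seen, split the libraries by number and not by host genotype. It had 681 and 727 in KO libraries 1 and 2 and 502 and 383 in WT libraries 1 and 2, and 108 and 107 in KO libraries 3 and 4 and 96.6 and 87.5 in WT libraries 3 and 4. Its log2 fold change of KO over WT was 0.45 (SE 0.80). Dusp2 was split in the opposite direction in both groups, with KO libraries 3 and 4 (3257 and 1717) above KO libraries 1 and 2 (801 and 674) and WT libraries 3 and 4 (698 and 881) above WT libraries 1 and 2 (540 and 339). Dusp16 was split that way in KO libraries but not in WT libraries. The estimated number of fragments divided the libraries in the same way, with 113968 to 261793 fragments in libraries 1 and 2 of the KO and WT groups, against 374707 to 636063 in libraries 3 and 4. The labels name no batch, and the part of the fragment number in these splits was not tested.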
